A study of Rattus norvegicus with 10 samples.

Results

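The genes described here encode the contractile, calcium-handling and energy-supply proteins of skeletal muscle, followed in RNA from rat knee cartilage. They are a list of 42 symbols matched to the symbol column of the deposited expression table, and no expression value enters that rule. The table held 40 of the 42 among its 17419 transcripts, and Neb and Ryr1 are not analysed here. Of the 40 genes, 38 had a mean of at least 0.5 FPKM over the 10 libraries and were tested. Myh7 and Myot fell below that level. FPKM scales each gene's fragments by its exon length and by the library's total, which lets levels be compared between genes.

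The RNA came from joint surface cut away with a blade, and was read by stranded, paired-end mRNA sequencing. Healthy, untreated cartilage (HC) gave 2 libraries. Joints given papain with L-cysteine, a protease injection that models osteoarthritis, gave 3 libraries at 4 weeks (OAC). A further 3 libraries came from joints 10 weeks after papain that had received the vector AAV-DJ-GFP at 4 weeks (SHAM). The last 2 came from joints 10 weeks after papain that had received AAV-DJ-Klotho and AAV-DJ-TGFBR2 together at 4 weeks (KT). OAC, SHAM and KT therefore share the papain injury, and SHAM and KT share an adeno-associated virus and the interval after injury. Every library is labelled as knee cartilage at an age of 5 months. Nothing in the labels says that libraries of 1 group are separate animals or cultures, and p-values therefore describe only the scatter among these libraries, which may be technical.

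Skeletal muscle contracts when myosin heavy chains of the thick filament pull on actin in the thin filament, a movement that calcium permits through troponin and tropomyosin. Most of these proteins exist in forms of fast and of slow fibres, encoded by separate genes. Among fast fibres, those built on the Myh4 myosin are the most glycolytic, those built on Myh1 lie between, and those built on Myh2 are more oxidative. Myh7 is the myosin of slow, oxidative fibres and of heart. Cartilage itself contains no muscle fibres, while the knee is surrounded by muscle, tendon and fat.

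Depth, recovered from the steps between low FPKM values, was 52.4 to 70.9 M reads per library (M for 1000000), of which 32.1 to 44.5 M lay on listed genes. Cartilage markers were present throughout. Col2a1, the main cartilage collagen, lay between 727 and 4644 FPKM and Chad, a chondrocyte matrix protein, between 3033 and 14454 FPKM. Others were lower, such as Sox9 at 9.34 to 27.1 FPKM. The 12 chondrocyte markers summed to 8640 to 22300 FPKM over the libraries. Markers of other cells were also high, with sums of 12500 to 38300 FPKM for red cell precursors. The sums were 2030 to 16100 FPKM for neutrophils and marrow and 1010 to 6790 FPKM for osteoblasts. Run names kept in the header of the authors' comparison table carry 3 distinct tags. Tag 2 occurs in 2 of the 3 OAC libraries and in no other group. Tag 1 occurs in 1 HC, 2 SHAM and 1 KT libraries and in no OAC library. Tag 3 occurs in 1 library of each group, and each group also held 1 library high in muscle genes, as given below. Which libraries carry a tag could not be worked out, so no value within a tag is given. Tag 2 and OAC therefore cannot be told apart, and whether tag 3 marks those high libraries could not be checked.

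Summed over the 40 genes, the muscle set made up 11.4% of all FPKM in HC replicate 1 and 0.179% in HC replicate 2. In OAC it made up 0.0795%, 0.509% and 0.198% in replicates 1, 2 and 3. SHAM replicates 1 and 2 stood at 0.139% and 0.0953%, against 1.88% in SHAM replicate 3. KT replicates 1 and 2 stood at 0.567% and 0.104%. Each group thus held 1 library well above the rest of its group, and the highest share was 63.8 times the lowest in HC, 6.4 times in OAC, 19.7 times in SHAM and 5.45 times in KT. No label records how much muscle lay on each dissected piece, and its part in these levels was not tested. In bulk RNA, fewer cells of a type and less RNA per cell cannot be told apart.

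**Figure D1:**
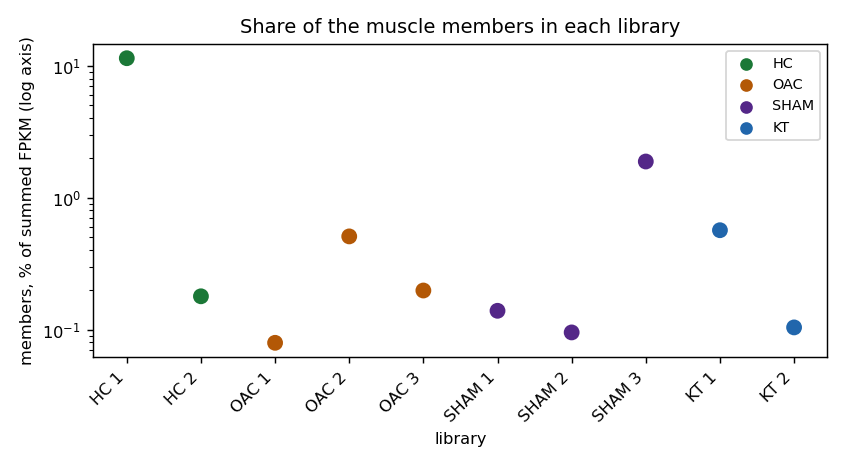
Summed FPKM of the 40 muscle genes as a percentage of the summed FPKM of all transcripts, on a log axis, with 1 point per library coloured by group. HC replicate 1 stands at 11.4%, SHAM replicate 3 stands at 1.88%, and the other 8 libraries lie between 0.0795% and 0.567%.

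Libraries of 1 group differed far more in these genes than in others. The median difference between the highest and lowest library, on the log2(FPKM + 1) scale, was 5.58 for the 38 muscle genes tested in HC, against 0.23 for all 11282 genes tested. The same medians were 2.33 against 0.22 in OAC, 3.93 against 0.26 in SHAM and 2.83 against 0.19 in KT. In HC replicate 1, 32 of 38 muscle genes were at least 2-fold above HC replicate 2 on FPKM + 1, where 4.96% of all genes were. At least 2-fold above every other library of their group were 28 of 38 in SHAM replicate 3 (1.37% of all genes), 35 of 38 in KT replicate 1 (1.84%) and 28 of 38 in OAC replicate 2 (0.647%).

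**Figure D2:**
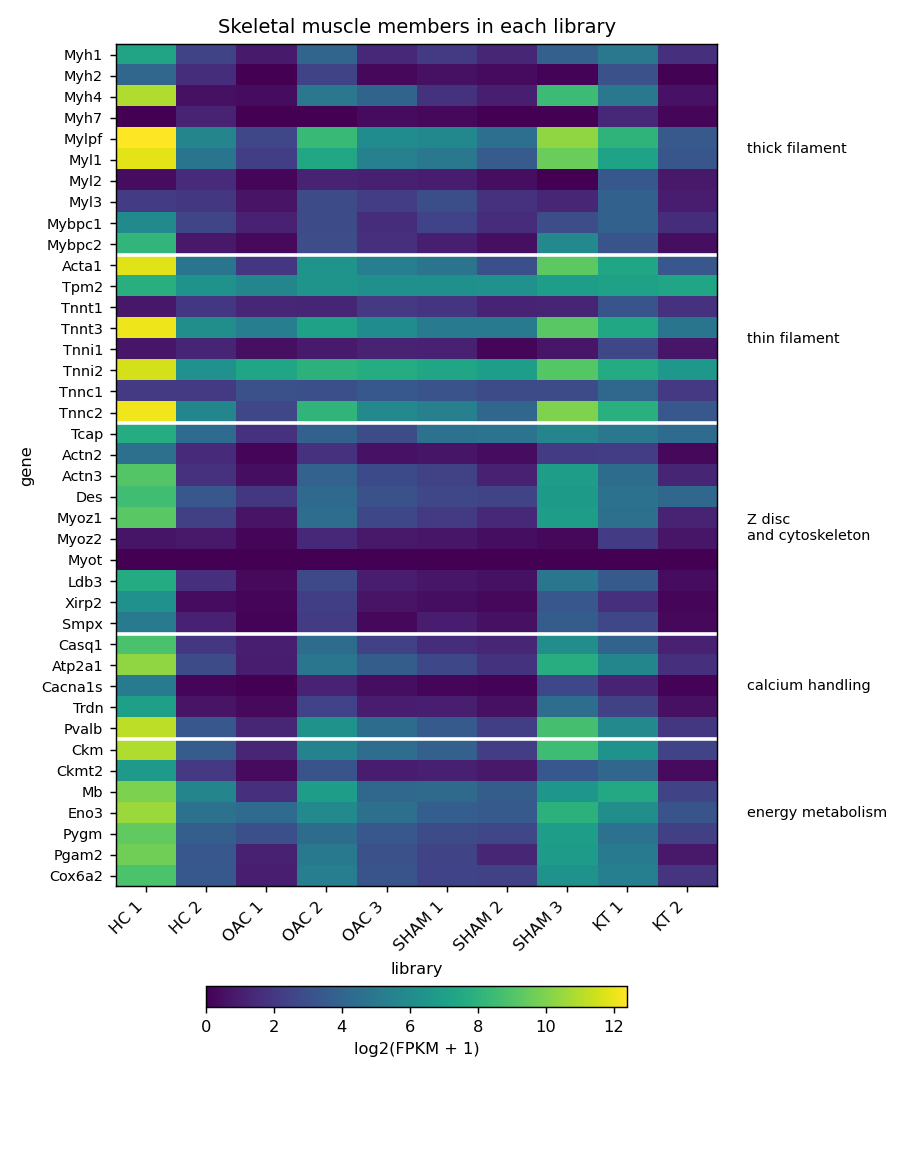
Level of each of the 40 muscle genes (rows, ordered by role) in each of the 10 libraries (columns), as log2(FPKM + 1). HC replicate 1 is the highest library for 32 of the 38 tested genes, while 6 genes, all of slow fibres, are highest in KT replicate 1.

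Actin and the myosins are taken first, and the RefSeq sequence just upstream of the start is printed for Acta1, Myh4 and Myh7. Acta1 and Myh4 were highest in HC replicate 1, where Myh7 had 2 recovered reads. Each run below holds the 150 bases before the annotated start in build GRCr8, read 5′ to 3′ on the gene's strand. Capitals mark a TATA box (TATAAA, gene strand), an E-box (CANNTG, the site of MyoD-family factors, both strands) or a CArG box (the site of serum response factor, both strands). The MEF2 site was also searched on both strands. The windows are chr19:68784195-68784344 (minus strand) for Acta1, chr10:52421998-52422147 (plus strand) for Myh4 and chr15:32438195-32438344 (minus strand) for Myh7.
Acta1: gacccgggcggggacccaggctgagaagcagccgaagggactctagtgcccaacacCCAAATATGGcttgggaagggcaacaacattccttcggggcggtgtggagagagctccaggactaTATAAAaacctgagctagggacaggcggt
Myh4: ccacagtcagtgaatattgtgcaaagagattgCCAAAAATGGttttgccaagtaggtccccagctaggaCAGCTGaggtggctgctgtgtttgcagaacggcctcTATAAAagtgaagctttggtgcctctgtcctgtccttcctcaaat
Myh7: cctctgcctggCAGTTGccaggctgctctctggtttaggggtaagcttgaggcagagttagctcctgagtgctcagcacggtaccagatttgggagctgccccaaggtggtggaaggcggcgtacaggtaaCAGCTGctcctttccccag

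Acta1 and Myh4 each hold a CArG box and a TATA box in this stretch, and Myh7 holds 2 E-boxes and neither of the others. Whether transcription of Myh7 begins at this annotated start was not tested, so the stretch may not be its promoter. Windows were given for 34 of the 40 genes. In the 250 bases upstream, an E-box was found in 28 of 34 windows (82.4%) against 65.5% of all 33469 windows, a TATA box in 26.5% against 8.06%, a MEF2 site in 20.6% against 2.96% and a CArG box in 11.8% against 1.5%. The 34 windows are 1 per gene, whereas the 33469 are all windows given, limited neither to 1 per gene nor to genes of the expression table. These are counts of letters in a window and not of bound sites.

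Acta1, the actin of the skeletal thin filament (NM_019212, chromosome 19 from 56674072 to 56677084 in rn6), stood at 3627 and 27.6 FPKM in the HC libraries. It measured 2.88, 84.8 and 38.2 in OAC, 25.9, 7.21 and 628 in SHAM, and 158 and 9.35 in KT. The groups overlap throughout, and HC replicate 1 was 131 times HC replicate 2. Ckm, the creatine kinase that buffers ATP in muscle (NM_012530, chromosome 1 from 80321585 to 80331841), followed the same order, at 1905 and 11.2 FPKM in HC, 1.51, 46.1 and 20.3 in OAC, 13.2, 3.74 and 370 in SHAM, and 80.0 and 4.86 in KT, where SHAM replicate 1 was above HC replicate 2 in place of below it. Atp2a1, the calcium pump of fast fibres, stood at 1279 and 6.10 FPKM in HC, 0.996, 28.3 and 11.5 in OAC, 5.36, 2.55 and 211 in SHAM, and 51.4 and 2.25 in KT.

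Myh4, the myosin of the fastest fibres (NM_019325, chromosome 10 from 53778666 to 53801606), had the widest range of the 38 muscle genes above 0 in every library, with a highest level 5710 times the lowest. It stood at 1917 and 0.448 FPKM in HC, 0.336, 29.1 and 14.9 in OAC, 2.57, 1.06 and 365 in SHAM, and 30.0 and 0.511 in KT. HC replicate 2, with Acta1 at 27.6 FPKM, thus had hardly more Myh4 than OAC replicate 1, with Acta1 at 2.88. Myh1 stood at 148 and 4.84 FPKM in HC, 0.871, 15.5 and 1.74 in OAC, 3.33, 1.495 and 13.0 in SHAM, and 29.9 and 2.28 in KT.

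Myh2 was highest in HC replicate 1 at 15.9 FPKM and in KT replicate 1 at 7.50, and measured 0.075 in SHAM replicate 3, where Myh4 was at 365. Myh7 went the other way (NM_017240, chromosome 15 from 33634422 to 33656089). It stood at 1.68 FPKM in KT replicate 1 (619 recovered reads) and 1.30 in HC replicate 2 (416 reads), but at 0.006 in HC replicate 1 (2 reads) and 0.012 in SHAM replicate 3 (4 reads). The 3 libraries with the lowest Myh7 were HC replicate 1, SHAM replicate 3 and OAC replicate 2, also at 0.006 FPKM, which were among the 4 highest in Myh4. Myh1, Myh2 and Myh4 are neighbouring genes of closely similar sequence, and how reads shared between them were counted is not stated, so their levels are uncertain.

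As a share of the 4 heavy chain genes together, Myh4 made up 92.1% in HC replicate 1, 96.5% in SHAM replicate 3 and 87.0% in OAC replicate 3. It made up 58.8% in OAC replicate 2, 43.4% in KT replicate 1 and 5.15% in HC replicate 2. HC replicate 2 instead had 55.6% Myh1, 24.4% Myh2 and 14.9% Myh7. KT replicate 1 had 43.3% Myh1, 10.9% Myh2 and 2.43% Myh7. The remaining libraries had a summed level of at most 6.57 FPKM, with Myh1 the largest part at 50.7 to 75.5%. The libraries of a group did not share a mixture, and with 2 or 3 libraries a group no test of the shares was made.

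**Figure D3:**
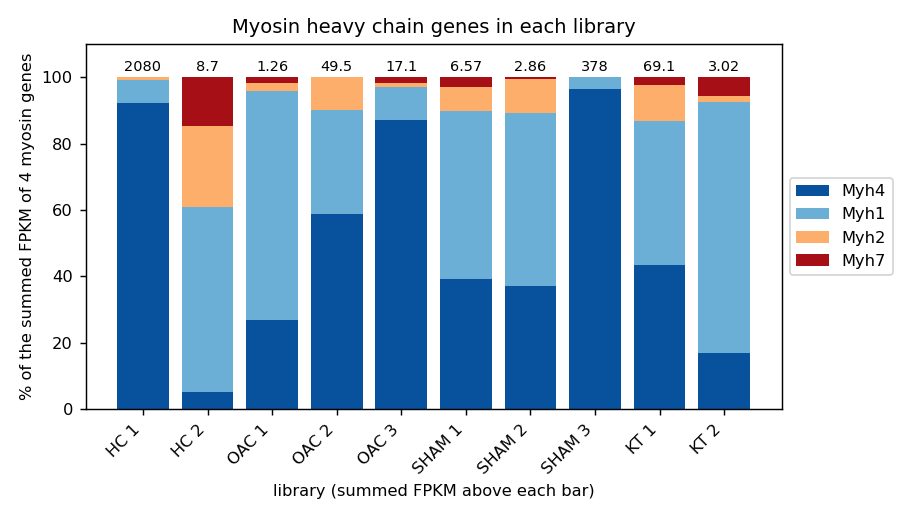
Share of Myh4, Myh1, Myh2 and Myh7 in their summed FPKM, 1 bar per library, with the summed FPKM above each bar. Myh4 fills 92.1% of the bar of HC replicate 1 and 96.5% of that of SHAM replicate 3, and 5.15% of that of HC replicate 2.

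The light chains and troponins repeated this split between fast and slow forms. Mylpf, a fast regulatory light chain, stood at 5393 FPKM in HC replicate 1, 1294 in SHAM replicate 3, 334 in OAC replicate 2 and 264 in KT replicate 1, and between 5.17 and 63.5 in the other libraries. Its slow counterpart Myl2 stood at 9.65 FPKM in KT replicate 1, was listed at 0 in SHAM replicate 3, and lay between 0.147 and 1.91 in the rest. Tnnt3, Tnni2 and Tnnc2, the fast troponins T, I and C, reached 4365, 3050 and 4471 FPKM in HC replicate 1. Tnnt1, Tnni1 and Tnnc1, the slow ones, were at 0.751, 0.684 and 3.28 in that library and at 8.43, 5.22 and 17.3 in KT replicate 1.

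All 14 fast genes were highest in HC replicate 1, and 6 of the 7 tested slow genes were highest in KT replicate 1. The exception was Mybpc1, a myosin-binding protein of slow fibres that fast fibres also contain, at 58.6 FPKM in HC replicate 1 and 13.7 in KT replicate 1. The summed fast genes were 421 times the summed slow genes in HC replicate 1 and 334 times in SHAM replicate 3. In recovered reads, not per length, these were 169 and 229 times, the other way round, and without Mylpf and Mybpc1, the largest of each list, 2500 and 423 times. The ratio was 55.5 in OAC replicate 2 and between 13.7 and 22.5 in the other 7 libraries, among them KT replicate 1 at 17.1. In libraries with little actin the sums rest on few genes. Tnni2 was 159 of the 218 FPKM of the fast sum in OAC replicate 1 and 95.9 of 164 in KT replicate 2. Tnnc1 was 7.40 of the 11.4 FPKM of the slow sum in OAC replicate 1. By ratio KT replicate 1 ranked 6 among the libraries, and 9 without Mylpf and Mybpc1. KT replicate 1 and OAC replicate 2 thus had nearly the same muscle share, at 0.567% and 0.509%, with different fast to slow ratios.

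Set against HC replicate 1, most fast genes lay within a limited range in each library. Myh1 and Myh2 lay outside it and are given apart, a choice made after the values were seen. In SHAM replicate 3, the 12 fast genes other than Myh1 and Myh2 stood at 13.6 to 24.0% of their level in HC replicate 1, with Acta1 at 17.3% and Ckm at 19.4%. Myh1 stood at 8.78% and Myh2 at 0.472%. In KT replicate 1 the same 12 genes stood at 1.57 to 6.46%, with Acta1 at 4.35% and Ckm at 4.20%, whereas Myh1 stood at 20.2% and Myh2 at 47.2%. Among genes of oxidative metabolism, Mb and Ckmt2 lay nearer Myh1 and Cox6a2 nearer Ckm. Mb, the oxygen store myoglobin, stood at 9.13% in SHAM replicate 3 and 17.9% in KT replicate 1, and Ckmt2, the mitochondrial creatine kinase, at 9.30% and 15.2%. Cox6a2, a muscle subunit of cytochrome oxidase, stood at 16.8% and 8.42%. The glycolytic genes Pygm, Pgam2 and Eno3, at 13.3 to 18.6% and 3.59 to 4.65%, lay within or just below the range of the fast genes.

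**Figure D4:**
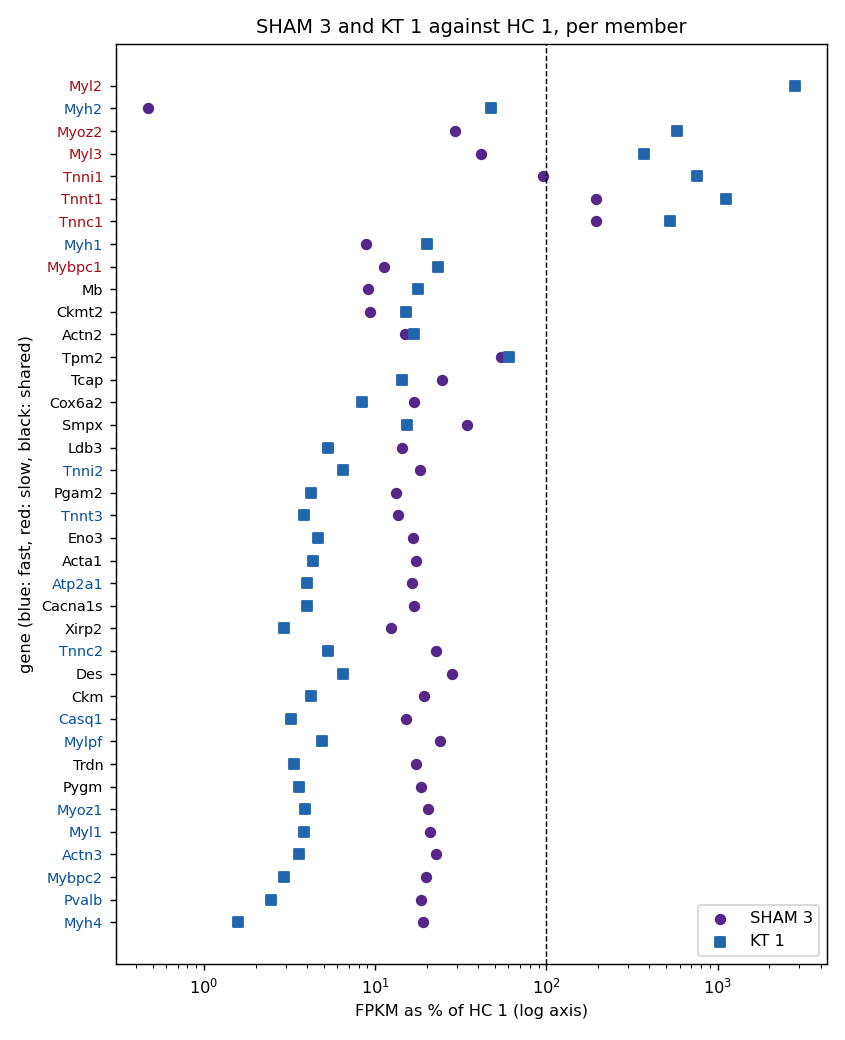
Level of each of the 38 tested muscle genes in SHAM replicate 3 (circles) and KT replicate 1 (squares) as a percentage of its level in HC replicate 1, on a log axis, with gene names coloured by fibre type. Most fast genes lie near 18.8% in SHAM replicate 3 and 3.86% in KT replicate 1, while 6 slow genes lie above 100% in KT replicate 1. Myl2, listed at 0 in SHAM replicate 3, has no circle.

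In all, 14 of the 40 genes were higher in KT replicate 1 than in SHAM replicate 3, namely all 8 slow genes, Myh1 and Myh2 of the 14 fast genes, and Mb, Ckmt2, Tpm2 and Actn2 of the rest. Across the 38 tested genes the levels in HC replicate 1 and SHAM replicate 3 had a Pearson correlation of 0.961, and those in HC replicate 2 and KT replicate 1 of 0.923, against 0.634 between the 2 HC libraries. OAC replicate 2 had one of 0.955 with KT replicate 1, 0.903 with SHAM replicate 3 and 0.874 with HC replicate 1. These are correlations across genes on the log2(FPKM + 1) scale, given as a description, since genes are not independent replicates.

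A few muscle genes kept a level well above 0 where actin was low. Tnni2 stayed between 75.0 and 253 FPKM in the 8 libraries other than HC replicate 1 and SHAM replicate 3, and stood at 159 in OAC replicate 1, where Tnnc2 was at 5.14. Tpm2, a beta-tropomyosin that smooth muscle and fibroblasts also contain, ranged only from 51.3 to 221 FPKM, 4.31-fold from lowest to highest. It stood at 154 in KT replicate 2, where Acta1 was at 9.35. Only 3 of the 40 genes were at or above 10 FPKM in every library, and these were Tpm2, Tnni2 and Tnnt3.

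Des, the intermediate filament of all muscle, stood at 385 and 9.23 FPKM in HC, 3.09, 17.8 and 7.56 in OAC, 5.33, 4.78 and 109 in SHAM, and 24.9 and 17.4 in KT. KT replicate 2 was thus higher in Des than HC replicate 2, though its Acta1 was lower. Beside these, the 12 smooth muscle and pericyte markers summed to 132 and 165 FPKM in KT, 94.1 to 101 in SHAM, 86.0 to 153 in OAC and 109 to 141 in HC. Rgs5 alone stood at 64.2 and 47.8 FPKM in KT and 13.2 to 27.3 in SHAM. Of the 11 of these markers tested between KT and SHAM, 5 had a positive and 6 a negative log2 difference, and 0 were called. The part of these markers in Tpm2 and Des was not tested.

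**Figure D5:**
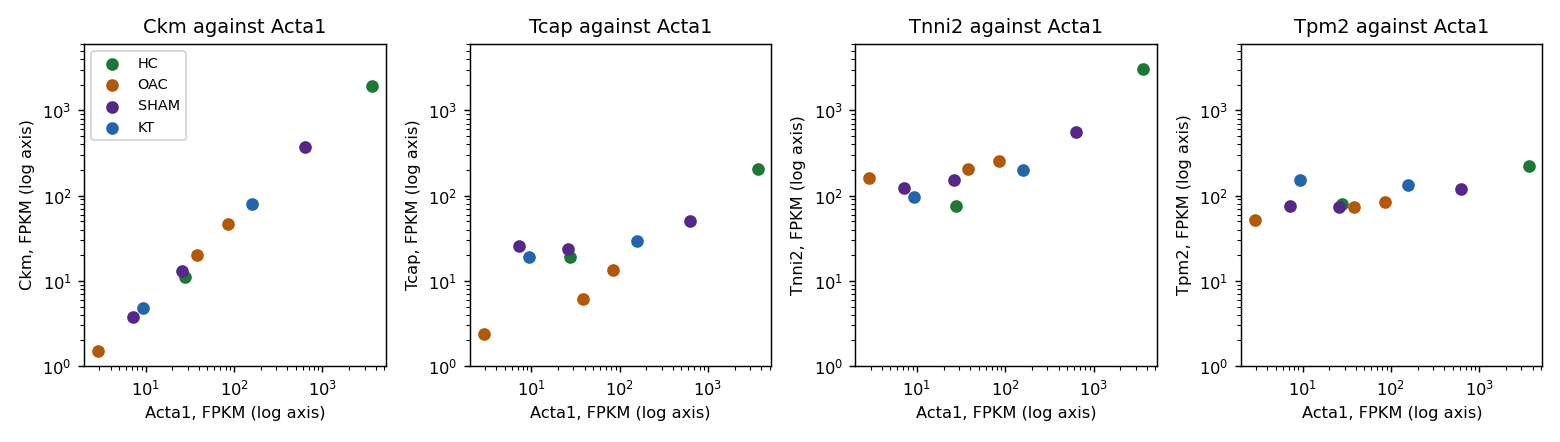
Ckm, Tcap, Tnni2 and Tpm2 against Acta1 in the 10 libraries, in FPKM on log axes, coloured by group. Ckm rises with Acta1 across the libraries except between SHAM replicate 1 and HC replicate 2, Tnni2 and Tpm2 stay within a narrow band in most libraries, and the 3 OAC points of Tcap, at 2.41 to 13.4 FPKM, lie below those of every other group.

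Between OAC and HC, which asks how the tissue differs 4 weeks after papain, 1 of the 38 tested genes was called by limma, Tcap, which was lower in OAC, 4 had an unadjusted p under 0.05, and 0 were called higher. Of all genes 29.7% were called, 6.27% lower and 23.4% higher. The median log2 change of the 38 genes was -2.81, against 0.14 for all genes, with 35 values below 0. Acta1 had a log2 difference of -3.77 ± 2.46 (SE; limma, Benjamini-Hochberg adjusted p = 0.27), Ckm -3.48 ± 2.48 (0.31), Atp2a1 -3.40 ± 2.47 (0.32), Des -2.85 ± 1.63 (0.21), Myh4 -2.61 ± 3.21 (0.57) and Tpm2 -0.95 ± 0.41 (0.11). Without HC replicate 1, which leaves a single healthy library assumed to vary like the other groups, the median was -0.12. Ckm (0.16), Atp2a1 (0.34) and Myh4 (2.57) then turned. Without HC replicate 2, which also leaves a single healthy library, the median was -5.66.

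The authors' deposited table, made with DESeq2 on counts, calls 16 of the 40 genes higher in HC than in OAC and 1 lower at an adjusted p under 0.05. Of all transcripts with a fold change there, 25.7% were called, and 12.4% were called higher in HC. The authors' deposited table gives Acta1 a log2 fold change of 5.64 (adjusted p = 0.025) and Tcap one of 4.12 (adjusted p = 0.0086), both as HC over OAC. In HC against SHAM the authors' deposited table calls Myh2 (5.16, adjusted p = 0.00034) and Mb (3.86, adjusted p = 0.048) higher in HC, and Tnnc1 lower. Of all transcripts there, 20.5% were called and 8.28% were called higher in HC. In that pair Acta1 (3.22), Ckm (3.06), Atp2a1 (3.3) and Myh4 (3.13) are among genes with p-values at the upper limit. These may stand for missing values, in which case such genes could not be called.

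Tcap encodes telethonin, which anchors titin at the Z disc of the sarcomere (NM_001271277, chromosome 10 from 86337703 to 86338861). It stood at 203 and 18.9 FPKM in HC, 2.41, 13.4 and 6.15 in OAC, 23.9, 25.4 and 49.7 in SHAM, and 29.2 and 19.0 in KT. All OAC libraries lay below all libraries of HC, SHAM and KT, which overlapped each other. The log2 change between OAC and HC was -3.17 ± 0.91 (SE; limma, Benjamini-Hochberg adjusted p = 0.029), and the call ended without HC replicate 1 (-1.49, adjusted p = 0.15), without OAC replicate 1 (-2.65, adjusted p = 0.08), without OAC replicate 3 (-3.18, adjusted p = 0.066), with the replicate number as a block (-3.34, adjusted p = 0.061), with array weights (-2.81, adjusted p = 0.086) and in a fit of HC and OAC alone (-3.17, adjusted p = 0.098).

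Per unit of Acta1, Tcap differed widely. It stood at 5.59% of Acta1 in HC replicate 1 and 7.92% in SHAM replicate 3, at 92.2% and 353% in SHAM replicates 1 and 2, and at 203% in KT replicate 2. In OAC the values were 83.4%, 15.8% and 16.1%. Between SHAM and OAC the log2 difference of Tcap was 2.19 ± 0.81 (SE; limma, Benjamini-Hochberg adjusted p = 0.42), and the authors' deposited table gives -2.19 for OAC over SHAM (adjusted p = 0.053). Neither passed.

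Tcap is known in muscle as a target of the circadian clock, and clock genes, chosen after their values were seen, are given beside it. Tef, a clock output factor, stood at 10.2 and 13.4 FPKM in HC, 5.13, 5.12 and 5.94 in OAC, 17.1, 14.1 and 16.6 in SHAM, and 18.3 and 18.1 in KT. It was thus lowest in the 3 OAC libraries, as Tcap was. Per2, a repressor of the clock loop, stood at 3.82 and 6.32 in HC, 2.11, 2.79 and 2.69 in OAC, and 7.25 to 8.34 in SHAM and KT. Of 9 clock genes looked at, 4 were lower in all OAC libraries than in every other library, namely Tef, Per2, Per3 and Nr1d1, and the other 5 were not. The share of all genes lowest in this way was not counted, and 14.7% lay wholly lower in OAC than in HC. Arntl stood at 19.9 and 15.4 FPKM in HC, 17.2, 12.9 and 10.9 in OAC, and 2.558 to 3.355 in SHAM and KT. Npas2 split likewise, at 8.61 to 12.8 in HC and OAC and 1.17 to 2.78 in SHAM and KT. Dbp, for example, stood at 12.1 FPKM in HC replicate 1 and 14.8 to 24.0 in OAC. Their part in the level of Tcap was not tested.

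Tnnc1, the troponin C of slow fibres and heart (NM_001034105, chromosome 16 from 7292207 to 7295238), was the 1 gene whose OAC libraries all lay above HC. It stood at 3.28 and 3.33 FPKM in HC, 7.40, 7.03 and 9.62 in OAC, 8.02, 6.39 and 6.42 in SHAM, and 17.3 and 3.22 in KT. Of all genes, 41.5% had OAC wholly above HC and 14.7% wholly below, the latter including Tcap alone among the 38. The log2 difference of Tnnc1 was 1.06 ± 0.48 (SE; limma, Benjamini-Hochberg adjusted p = 0.13). It passed without KT replicate 1 or without KT replicate 2 (0.0029 each), which removes the spread within KT from the fit, and in a fit of HC and OAC alone (0.012), in each case by limma with Benjamini-Hochberg adjustment, and the authors' deposited table calls it (-1.09 as HC over OAC, adjusted p = 0.0035).

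Between SHAM and OAC, in which time after papain and the GFP vector differ together, limma called 0 of the 38 genes at an adjusted p under 0.05 and 1 at an unadjusted p under 0.05, where 1.16% of all genes were called. Voom on recovered reads also called 0. The median log2 difference was 0.51 against -0.02 for all genes, with 32 values above 0. Acta1 differed by 1.14 ± 2.20 (SE; limma, Benjamini-Hochberg adjusted p = 0.97), Ckm by 1.10 ± 2.22 (0.97), Myh4 by 0.69 ± 2.87 (0.99), Atp2a1 by 0.90 ± 2.21 (0.98), Des by 0.87 ± 1.46 (0.96) and Tpm2 by 0.37 ± 0.36 (0.89). Without SHAM replicate 3 the median was -0.55, and without OAC replicate 1 it was -0.18. Tcap was the 1 gene whose libraries did not overlap, higher in SHAM as in 7.81% of all genes. The authors' deposited table calls 0 of the 40 in this pair, where 3.63% of all were called. As OAC over SHAM, Myh4 (-3.06) and Mybpc2 (-2.69) are among genes whose p-values there sit at the upper limit and may be missing.

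Between KT and SHAM, which asks about the Klotho and TGFBR2 vectors at 10 weeks, limma called 0 of the 38 genes at an adjusted p under 0.05 and 2 at an unadjusted p under 0.05, where 1.05% of all genes were called, and voom on recovered reads called 0. The 7 tested slow genes all had a positive log2 difference, with a median of 0.99, and 12 of the 14 fast genes a negative one, with a median of -0.64. All 7 slow genes were at least 2-fold higher in KT replicate 1 than in KT replicate 2 on FPKM + 1, and Tnnc1 turned from 0.15 to -0.90 without KT replicate 1. Myl2 differed by 1.63 ± 0.70 (SE; limma, Benjamini-Hochberg adjusted p = 0.33), with KT libraries at 9.65 and 0.774 FPKM, of which the lower lay inside the SHAM range of 0 to 0.993. Acta1 differed by -0.35 ± 2.46 (0.96), Ckm by -0.42 ± 2.48 (0.95), Atp2a1 by -0.37 ± 2.47 (0.95), Myh4 by -1.02 ± 3.21 (0.91), Des by 0.46 ± 1.63 (0.92), Tcap by -0.39 ± 0.91 (0.88) and Tpm2 by 0.70 ± 0.41 (0.45), all by limma with Benjamini-Hochberg adjusted p in brackets. The median over the 38 genes was -0.36, and it was 1.03 without SHAM replicate 3, -1.56 without KT replicate 1 and 1.18 without KT replicate 2. Tpm2 and Myoz2, a slow-fibre calsarcin at the Z disc, were the 2 genes with KT wholly above SHAM, as were 15% of all genes, and 0 lay wholly below, as did 17.4%. The authors' deposited table calls 0 of the 40 between KT and SHAM, where 3.66% of all were called. Acta1 (-1.4), Ckm (-1.61), Atp2a1 (-1.45) and Myh4 (-3.01) are among genes whose p-values there sit at the upper limit. These may stand for missing values, so the count of 0 does not show that such genes were unchanged. Neighbouring comparisons share OAC or SHAM libraries.

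Muscle genes outside the list were also highest in HC replicate 1 in most cases. Of 92 genes on 4 further lists of muscle structure, excitation, metabolism and muscle regulators, 78 were highest in HC replicate 1. The share of all genes highest in that library was not counted. Of the 76 tested, 62 were at least 2-fold above HC replicate 2 in HC replicate 1, as were 4.96% of all genes. In SHAM replicate 3, 40 were so above both other SHAM libraries (1.37% of all genes). In KT replicate 1, 21 were so above KT replicate 2 (1.84%). Some of the 76 passed the filter only through HC replicate 1, so their place in the 62 says little. Kcnj11 and Smyd1, for example, stood at 14.5 and 14.7 FPKM there and at most 1.96 and 2.51 in any other library. Myf6, a regulator kept on in mature fibres, had 26.7 FPKM in HC replicate 1, with 3.41 for SHAM replicate 3 and at most 0.734 elsewhere. Pax7, which marks satellite cells, stood at 0.131 in HC replicate 1, 0.023 in SHAM replicate 3 and 0 in the other libraries.

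The stretch-response gene Ankrd2 and the Z-disc protein Csrp3, both richer in slow fibres, were highest in KT replicate 1, at 2.20 and 3.69 FPKM, against 0.148 and 0.452 in HC replicate 1. Other genes of these lists that slow fibres also contain did not all follow. Casq2 was highest in KT replicate 1 at 1.37 FPKM. Tpm3 was highest in SHAM replicate 3 (84.5, against 71.5 in KT replicate 1). Atp2a2 was highest in OAC replicate 2 (32.6 against 29.3) and Pln in HC replicate 2 (0.929 against 0.142). Of 8 heart markers, Nppa, Nppb and Myl7 were at 0 in every library and Myh6 was at most 0.044 FPKM. The summed level of the 8 was 0.212 to 2.30 FPKM in HC, 0.697 to 1.88 in OAC, 0.874 to 3.29 in SHAM and 0.565 to 1.51 in KT, with Ankrd1 at 2.21 in HC replicate 1 and 2.68 in SHAM replicate 3. On the 4 further muscle lists, 8 genes of the 76 were called lower and 1 higher in OAC than in HC, and 67 were not called, where 6.27% of all genes were called lower and 23.4% higher. The largest call was Fbp2, a muscle fructose bisphosphatase, at -2.05 ± 0.33 (SE; limma, Benjamini-Hochberg adjusted p = 0.0033). It stood at 26.0 and 11.95 FPKM in HC and 2.52 to 4.70 in OAC, so that both HC libraries lay above OAC.

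Outside these lists, the 10 genes most like the mean of the muscle genes over the 10 libraries had a Pearson correlation of 0.965 to 0.988, given as a description. They were Dhrs7c, Smtnl1, Abra, Hjv, Pdlim3, Trim54, Mlf1, Aldh1a1, Rtn2 and LOC102550325. Without HC replicate 1 their correlations were 0.934 to 0.977. Dhrs7c, a reductase of the sarcoplasmic reticulum, stood at 75.4 and 0.795 FPKM in HC, 0.05, 3.93 and 1.02 in OAC, 0.677, 0.271 and 14.7 in SHAM, and 3.86 and 0.181 in KT. Aldh1a1, a retinaldehyde dehydrogenase, stood at 22.5 FPKM in HC replicate 1, 5.81 in SHAM replicate 3 and at most 1.63 in the other 8 libraries.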

How the data were processed

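The authors deposited FPKM per RefSeq transcript in 10 libraries and a table of DESeq2 log2 fold changes with p-values. Tools listed by the authors, per the submitters' processing notes, were STAR 2.5.3a, DESeq2 1.18.1, FastQC 0.11.2 and HOMER, with build rn6. Per the file headers, the counts behind the fold changes were made with HOMER over exons. Coordinates are those of the deposited FPKM table, as listed there.

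Limma 3.58.1 in R 4.3.3 was fitted to log2(FPKM + 1) with an intensity trend, group as the only term and all 10 libraries, for the 11282 genes averaging 0.5 FPKM or more. The two-sided p-values were adjusted by Benjamini-Hochberg over all genes tested, and called under 0.05. The log2(FPKM + 1) scale understates changes of low genes. Recovered reads come from the common step of FPKM times exon length at low values, found among 8000 trial steps, and 100% of low values lay within 0.15 of a whole read, against 30% by chance. The fit was tested on simulated data drawn independently for each gene and library. Those data held no library that stood out across many genes, so that test does not cover the spread of the muscle genes. Promoter windows are from RefSeq, build GRCr8.

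The genes, lists and the rule for named genes were chosen with earlier results of these data known. By that rule any muscle gene could be named, with test values for Tcap, Acta1, Ckm, Myh4, Myh7, Atp2a1, Des, Tpm2 and called genes. From further lists it took called genes, those at or above 10 FPKM in any library and the 3 highest of each list, and outside the lists the 10 most similar genes. Myh7 was below the filter and has no test value. Test values for Tnnc1 and Myl2, and the naming of Ankrd2, Csrp3, Casq2, Pln, Pax7, the heart genes and the clock genes, were chosen after their values were seen. Alternatives tried were the pseudocount, the filter, scaling, voom on recovered reads, array weights, a replicate block, 2-group fits and each library left out.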

Additional observations from a re-analysis of the deposited data

How the results depend on the processing

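With 2 or 3 libraries a group, 1 library decided most values. The number of muscle genes called between OAC and HC, 1 in the main fit, was 0 with array weights and 0 with the replicate block, and ranged from 0 to 16 when each library was left out, with 16 without HC replicate 2, 2 without either KT library and 0 without HC replicate 1, OAC replicate 1 or OAC replicate 3. It was 1 under both scalings, voom, the pseudocount of 0.1 and other filters, and the 2-group fit called Tnnc1 in place of Tcap. In SHAM against OAC and KT against SHAM, 0 were called under every alternative run. The number of genes without overlap ranged from 2 to 34 in OAC against HC, 1 to 5 in SHAM against OAC and 2 to 28 in KT against SHAM when a library was left out. The highest counts were without HC replicate 2 (34), SHAM replicate 3 (5) and KT replicate 1 (28). Leaving out an HC or KT library leaves a single library in that group, which makes overlap rarer for any gene. The share of all genes without overlap was not counted in these settings, so the counts say little about the muscle genes. Leaving out 1 library turned the sign of several changes that were not called. In OAC against HC the ranges were -7.13 to 0.16 for Ckm, -7.80 to 2.57 for Myh4 and -7.15 to 0.34 for Atp2a1. In SHAM against OAC they were -0.66 to 2.47 for Acta1, -0.73 to 2.41 for Ckm, -1.67 to 2.07 for Myh4, -0.92 to 2.03 for Atp2a1 and -0.52 to 1.60 for Des. In KT against SHAM they were -2.32 to 1.62 for Acta1, -2.32 to 1.47 for Ckm, -3.20 to 1.34 for Myh4, -2.38 to 1.64 for Atp2a1 -0.27 to 1.85 for Des and -0.90 to 1.21 for Tnnc1. Array weights turned Myh4 in SHAM against OAC (-0.15), and the replicate block turned Acta1 (0.73), Ckm (0.66), Myh4 (0.38) and Atp2a1 (0.66) in KT against SHAM. Libraries of the same number had correlations of their deviations across genes of -0.263 and -0.421 in OAC against HC, -0.069, -0.375 and -0.161 in SHAM against OAC, and -0.334 and 0.267 in KT against SHAM, so that 1 of 7 pairs deviated together and the libraries were taken to share only a number. Myh7, below the filter, was not run under the alternatives. Median-of-ratios scaling moved the median of all genes in OAC against HC from 0.14 to -0.02 and the share of higher calls from 78.9% to 56.1%, while quantile normalization gave 57.5% and voom 64.9%. By reads in place of FPKM, HC replicate 1 and SHAM replicate 3 still had the 2 highest muscle shares, at 9.48% and 1.62%.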
